A study of Capra hircus with 2 samples.

Results

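KRT35, KRT38, KRTAP11-1, KRTAP3-1, MT4 and PRR9 are 6 of the 27137 features counted in single cells of the skin of Liaoning cashmere goats (Capra hircus). They were chosen by symbol as genes of the hair shaft, and all 6 were found, each under 1 symbol. The cells came from the scapular skin of 2 healthy goats, 1 with coarse cashmere (CT-LCG) and 1 with fine cashmere (FT-LCG), with no treatment, taken while the secondary hair follicles, which make the cashmere, were in full growth. Each goat gave 1 library made with the 10x Genomics 3' kit, version 3. Fibre type, animal and library therefore cannot be told apart. No test between the types was possible, and each interval below covers counting error only. The labels of the samples give no fibre type per goat, so the type of each cell was taken from the cell table that accompanies the matrix. Dead cells and red blood cells had been removed before capture.

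A growing follicle builds the hair shaft from dividing matrix cells at its base. As these cells move up they first make hair keratins, which form the filaments of the cortex and cuticle, and then keratin-associated proteins, the cysteine-rich or glycine- and tyrosine-rich matrix that cross-links those filaments. Around the shaft, the inner root sheath makes its own keratins (KRT25, KRT27) and trichohyalin (TCHH), and it is lost before the fibre leaves the skin. KRT35 and KRT38 are type I hair keratins, of which KRT35 is made early in the hair matrix and cortex. KRTAP11-1 and KRTAP3-1 are high-sulphur keratin-associated proteins, MT4 is a metallothionein of stratified epithelia, a small protein that binds metals, and PRR9 is a proline-rich protein encoded among the genes of the epidermal differentiation complex.

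In the goat gene table of assembly ARS1.2, KRT38, KRT32, KRT35 and KRT36 follow each other. KRTAP11-1 is followed by LOC100861181 and KAP8, another keratin-associated protein gene. MT4 lies between MT3 and BBS2, and PRR9 between LELP1 and LOR, the gene of loricrin. Hair keratins and keratin-associated proteins are families of closely similar genes, of which many carry only a LOC name in goat, so reads of near-identical copies may have been split or dropped and the counts of KRT38, KRTAP3-1 and KRTAP11-1 are uncertain to that extent. No gene sequence was used.

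The 3443 kept CT-LCG cells held 27890472 unique molecular identifiers (UMIs, each standing for 1 captured RNA molecule) with a median of 2314 per cell, and the 9608 FT-LCG cells held 85400323 with a median of 6122. Below, a level is the number of UMIs of a gene per 10000 UMIs of the cells named. Because deeper cells show a UMI of any gene more often, shares of cells were also taken after drawing 1000 UMIs at random from each cell (thinning), which kept 3074 CT-LCG and 8569 FT-LCG cells and left out 369 and 1039. No doublets were removed. The libraries shared 11 cell barcodes. Of the cells that carried them, 1 in FT-LCG, and none in CT-LCG, had 8 or more thinned UMIs of one of the 6 genes.

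KRT35 was counted 2986 times in CT-LCG, spread over 788 cells, while FT-LCG held 28868 UMIs spread over 2799 cells. Over all kept cells its level was 1.07 (95% Poisson interval 1.03 to 1.11) in CT-LCG and 3.38 (3.34 to 3.42) in FT-LCG. KRTAP11-1 had 1029 UMIs in the coarse and 10934 in the fine type, at levels of 0.369 (0.347 to 0.392) and 1.28 (1.26 to 1.30). The summed level of both genes was higher in the fine type library.

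MT4 had 1617 and 13266 UMIs, a level of 0.580 (0.552 to 0.609) in CT-LCG and 1.55 (1.53 to 1.58) in FT-LCG. PRR9 had 1431 and 8958 UMIs, at 0.513 (0.487 to 0.540) and 1.05 (1.03 to 1.07). KRTAP3-1 was rare in the coarse type, with 55 UMIs in 48 cells and a level of 0.0197 (0.0149 to 0.0257), and common in the fine type, with 4455 UMIs in 771 cells and a level of 0.522 (0.506 to 0.537). KRT38 was close to absent from both, with 2 UMIs in the coarse and 34 in the fine type, never more than 4 in a cell.

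Most of those sums rest on few cells. For KRT35, 10 CT-LCG cells and 35 FT-LCG cells were enough to hold 50% of the UMIs. For PRR9 it was 5 and 3 cells, and for MT4 26 and 18. In CT-LCG the UMIs of KRTAP11-1 and KRTAP3-1 were more spread out, with 127 of 641 and 21 of 48 cells needed to reach that share, whereas 1 FT-LCG cell sufficed for each. In FT-LCG, 1 cell with 75565 UMIs held 5594 UMIs of KRTAP11-1, 51.2% of that library's total, together with 3199 of KRTAP3-1 (71.8%) and 2874 of MT4 (21.7%), and it held 1 UMI of KRT35. Without this cell the FT-LCG level of KRTAP11-1 was 0.626, that of KRTAP3-1 was 0.147 and that of MT4 was 1.22. Most other cells with a UMI held exactly 1: 80.1% of KRT35-positive CT-LCG cells, 75.5% of those of FT-LCG, and between 76.3% and 91.8% for KRTAP11-1, KRTAP3-1, MT4 and PRR9.

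Free RNA released by broken cells can give single molecules to cells of any type, and its part in these counts was not tested. After thinning, KRT35 was seen in 12.2% of CT-LCG and 11.6% of FT-LCG cells (22.9% and 29.1% before thinning). In endothelial-like cells, which should not make hair keratins, it was still seen in 6.25% (3 of 48; Clopper-Pearson interval 1.31% to 17.2%) and 5.93% (8 of 135; 2.59% to 11.3%), and before thinning in 19.3% and 19.0%, at median depths of 1788 and 2731 UMIs. In the same cells the thinned share was 12.5% and 7.41% for KRTAP11-1, 4.17% and 7.41% for MT4, 2.08% and 0.741% for KRTAP3-1, and 0% and 5.19% for PRR9. Over all thinned cells the shares were 9.14% and 7.03% for KRTAP11-1, 9.56% and 7.63% for MT4, 0.618% and 2.93% for KRTAP3-1, and 7.45% and 4.22% for PRR9. All of these overall shares lie within the endothelial-like interval of their library, except KRT35 in FT-LCG (11.6% above 11.3%) and PRR9 in CT-LCG (7.45%, above the 6.25% that 0 of 48 cells allows). With 48 and 135 endothelial-like cells these intervals are wide, so a share inside them does not show where its UMIs come from. For caution, a single UMI is not read as expression here.

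Cells were clustered without the 6 genes and without the other hair shaft genes listed for this work, and 17 of 18 clusters had at least 20 cells in each library. KRT35 was highest in cluster 11, with 107 CT-LCG and 278 FT-LCG cells, at 19.6 (18.6 to 20.7) for CT-LCG and 52.0 (51.3 to 52.7) for FT-LCG. This cluster held 45.2% and 68.0% of the KRT35 UMIs. The next cluster in order, cluster 0, stood at 6.02 and 5.05. It is the largest one, with 1038 and 1986 cells, and shallow, with medians of 1079 and 1113 UMIs. The cycling-like cluster, led by UBE2C, CENPF and TOP2A, held 2.34 and 2.58, beside 0.569 and 0.549 in the endothelial-like cells, and the lowest mean over both libraries was 0.118. The clusters between these, 2 and 7, overlapped each other in both libraries, and cluster 7 overlapped the cycling-like cells in CT-LCG.

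**Figure D1:**
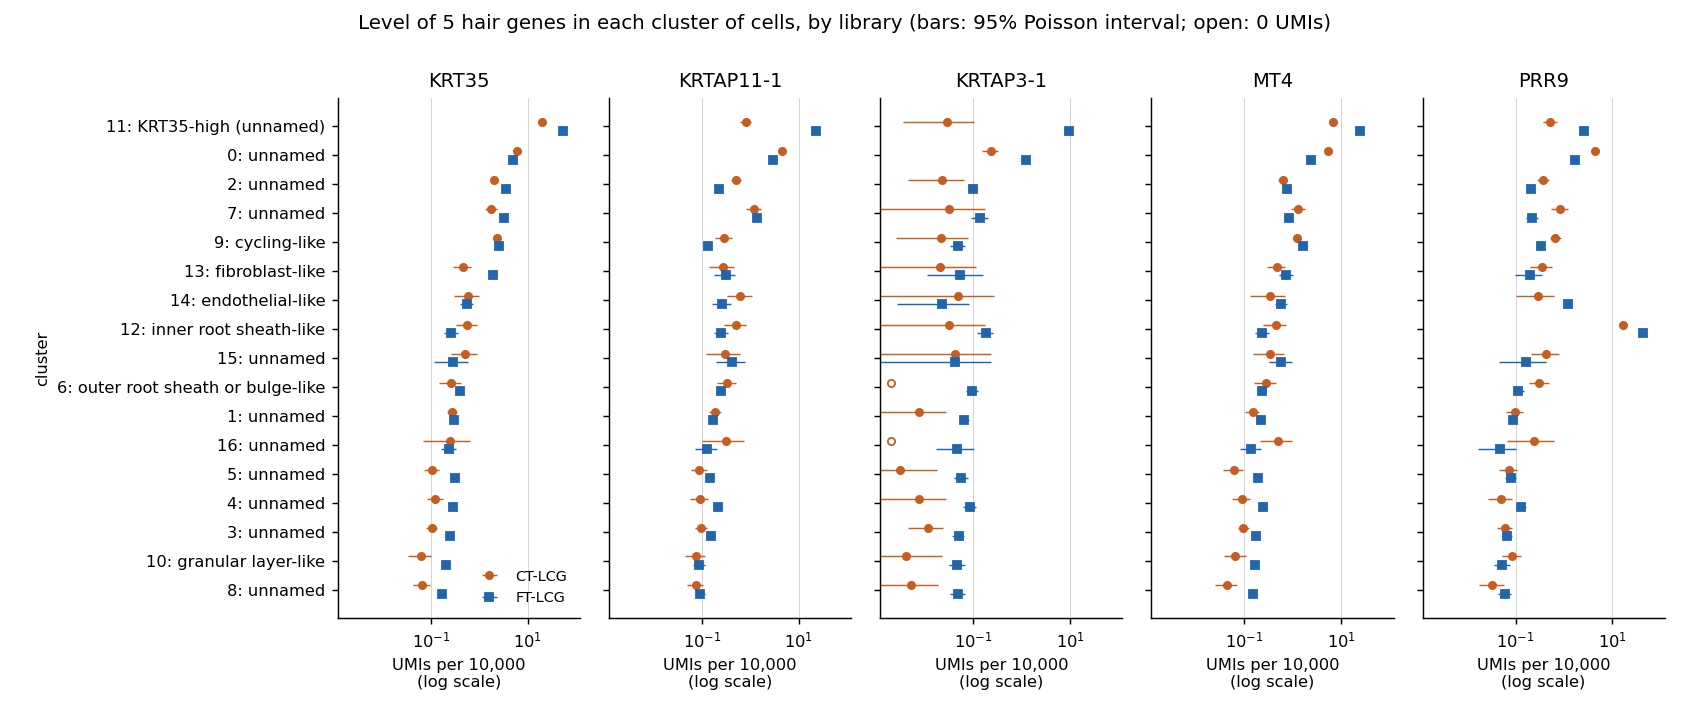
Level of KRT35, KRTAP11-1, KRTAP3-1, MT4 and PRR9 (UMIs per 10000, log axis) in the 17 clusters with at least 20 cells in each library, sorted by KRT35, for CT-LCG (circles) and FT-LCG (squares), with 95% Poisson intervals and open symbols for 0 UMIs. KRT35, MT4 and, in FT-LCG, KRTAP11-1 and KRTAP3-1 are highest in cluster 11, and PRR9 is highest in the inner root sheath-like cluster. The FT-LCG place of KRTAP3-1 and the CT-LCG places of MT4 and PRR9 each rest on 1 cell.

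Cluster 11 is called KRT35-high below and has no cell type name. Its 10 leading genes by fold are LOC genes headed by LOC102191453, of which 12 CT-LCG cells and 8 FT-LCG cells held 10 or more UMIs. Those 12 cells held 63.1% of the cluster's UMIs in CT-LCG, against 3.16% for the 8 cells in FT-LCG. The cluster's median depth was 1414 UMIs for CT-LCG and 10561 for FT-LCG. Within it, 55 of 91 thinned CT-LCG cells and 128 of 250 FT-LCG cells had no KRT35 UMI, so the cluster mixes KRT35 cells with others.

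MT4 was highest in the same pair of clusters as KRT35. Its level in the KRT35-high cluster was 6.86 (6.26 to 7.51) for CT-LCG and 24.9 (24.4 to 25.4) for FT-LCG, followed by cluster 0 with 5.29 and 2.41 and, in the mean over both libraries, by the cycling-like cluster with 1.22 and 1.60. In CT-LCG, 1 cell with 34759 UMIs held 248 of the 473 MT4 UMIs of the KRT35-high cluster. The place of MT4 above cluster 0 in that library rested on this cell. KRTAP11-1 stood at 22.9 (22.4 to 23.4) in the KRT35-high cluster of FT-LCG but at 0.798 (0.601 to 1.04) in that of CT-LCG, where its interval overlaps that of endothelial-like cells (0.328 to 1.05). In CT-LCG its highest level was 4.54, in the shallow cluster 0. KRTAP3-1 had the same split, with 9.54 in the KRT35-high cluster of FT-LCG and 0.0290 in CT-LCG, from 2 UMIs. For KRT38 the intervals of neighbours in the order of clusters overlapped throughout, with at most 7 UMIs in any cluster of a library.

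The FT-LCG levels of these genes in the KRT35-high cluster lean on the cell with 75565 UMIs, which belongs to it. That cell held 5594 of the cluster's 8645 KRTAP11-1 UMIs and 3199 of its 3599 KRTAP3-1 UMIs. Without it KRTAP11-1 was at 8.25 (7.96 to 8.55), still above the 2.89 of cluster 0, and MT4 was at 17.6 (17.2 to 18.0). KRTAP3-1 came to 1.08 (0.978 to 1.19), beside 1.25 (1.11 to 1.40) in cluster 0, so its place at the top of the order rested on that cell.

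PRR9 was ordered differently. Its level was highest in the inner root sheath-like cluster, led by KRT27, LOC102177231, TCHH and KRT25, at 16.5 (15.1 to 18.0) for CT-LCG and 43.1 (42.1 to 44.2) for FT-LCG, where KRT35 was at 0.564 and 0.258. In the KRT35-high cluster PRR9 was at 0.522 and 2.54. Even in the inner root sheath-like cluster its UMIs sat in few cells. The thinned share of cells with a UMI was 6.52% (2.43% to 13.7%) and 8.64% (4.81% to 14.1%), intervals that overlap those of the endothelial-like cells. The top CT-LCG cell held 507 PRR9 UMIs beside 1704 of KRT25, KRT27 and TCHH and none of KRT35, and the top FT-LCG cell, with 139578 UMIs, held 3230 beside 31377 and 2. Without the top cell of each library, PRR9 in this cluster was at 23.9 (23.1 to 24.8) for FT-LCG, still the highest of the 17 clusters. For CT-LCG it then was at 0.719 (0.439 to 1.11) from 20 UMIs, and cluster 0, which held 5 of the 6 CT-LCG cells with 8 or more thinned PRR9 UMIs, led at 4.37 (4.01 to 4.76). The label of hair shaft gene thus goes against the order of clusters in FT-LCG, while the first place in CT-LCG turned on 1 cell. Cluster 0 itself had KRT27, KRT25 and TCHH among its leading genes in a ranking by fold. In another such ranking it had KAP8, LY6G6D and S100A3, so its lead in CT-LCG does not place PRR9 in the shaft or the sheath.

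To order the genes along KRT35, thinned cells were binned by their KRT35 UMIs. In FT-LCG the share of cells with MT4 was 5.53% at 0 KRT35 UMIs (7572 cells), 14.7% at 1, 28.2% at 2 to 3, 46.4% at 4 to 7, 66.7% at 8 to 15 and 93.1% at 16 or more (29 cells, interval 77.2% to 99.2%). In CT-LCG it was 7.22% at 0 (2700 cells), 20.2% at 1, 37.3% at 2 to 7 and 68.0% at 8 or more (25 cells, interval 46.5% to 85.1%). The MT4 share was higher in each bin than in the one before, in both libraries.

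KRTAP11-1 did not show this climb. Its share in FT-LCG was 5.71% at 0, 15.7% at 1, 22.8% at 2 to 3, 12.5% at 4 to 7, 18.5% at 8 to 15 and 27.6% at 16 or more, with overlapping intervals from the bin of 1 UMI on. In CT-LCG the same share went from 7.78% at 0 to 24.0% at 8 or more, with an interval of 9.36% to 45.1% in the last bin. The depth of the bins moves with these shares: cells with 1 to 3 KRT35 UMIs in FT-LCG had medians of 1417 and 1271 UMIs, and those with 4 or more had medians between 10302 and 17344. The part of depth and free RNA in the shares of the low bins was not tested.

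KRTAP3-1 in FT-LCG was seen in 16.1% of cells at 2 to 3 KRT35 UMIs and in 1.79% to 3.70% of cells above that. In CT-LCG 4 UMIs of it, in 1 cell, lay in the top bin. PRR9, like MT4, was seen more often at 1 KRT35 UMI than at 0, but less often in the upper bins. Its FT-LCG share was 3.65% at 0 KRT35 UMIs, 10.0% at 1, 8.05% at 2 to 3, 3.57% at 4 to 7 and 1.85% at 8 to 15, and none of the 29 cells with 16 or more had a UMI, which allows a share of up to 10.3%. In CT-LCG it was 6.48% at 0, 14.9% at 1, 16.4% at 2 to 7 and 4.00% (0.101% to 20.4%) at 8 or more, an interval that overlaps those of the other bins. KRT38 had no UMI in any bin above 0 in either library, and only 1 (CT-LCG) and 8 (FT-LCG) in the bin of 0, too few to place it.

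**Figure D2:**
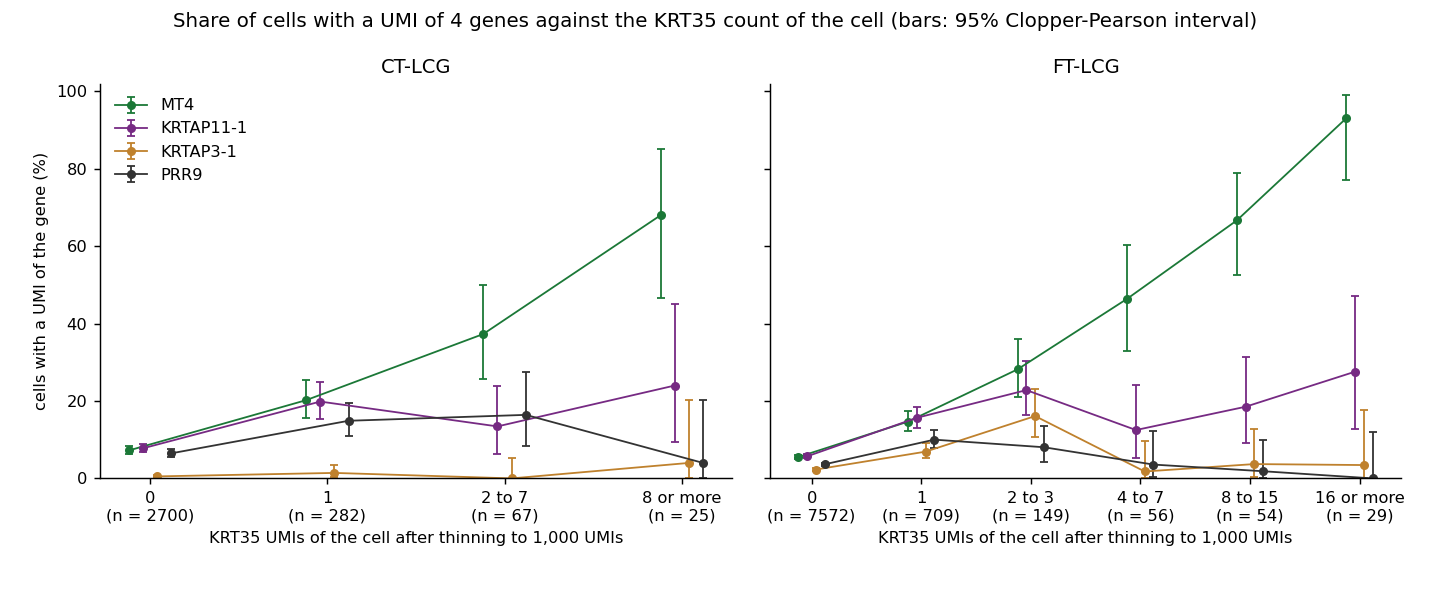
Percentage of cells with a UMI of MT4, KRTAP11-1, KRTAP3-1 and PRR9 (points, with 95% Clopper-Pearson intervals) against the KRT35 UMIs of the cell after thinning to 1000 UMIs, for CT-LCG (4 bins) and FT-LCG (6 bins), with the number of cells under each bin. MT4 climbs to 68.0% and 93.1%, and PRR9 ends at 4.00% and 0%.

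As a measure of onset, the bin was sought from which on a gene stayed at or above 50% of its highest level. For MT4, KRTAP11-1 and KRTAP3-1 this was the top bin in both libraries, 8 or more in CT-LCG and 16 or more in FT-LCG. Thinned MT4 levels there were 38.8 (31.5 to 47.3) and 51.7 (43.8 to 60.7), and KRTAP11-1 levels were 7.60 (4.58 to 11.9) and 12.4 (8.69 to 17.2). These KRTAP11-1 levels came from 19 and 36 thinned UMIs. Most of them lay in 1 cell of each library, at a level of 100 (CT-LCG) and 190 (FT-LCG), so the KRTAP11-1 bin leans on that cell. KRTAP3-1 levels were 1.60 (0.436 to 4.10) and 1.38 (0.376 to 3.53), from 4 UMIs in 1 cell in each library, so its bin rests on that cell. KRTAP3-1 had its highest FT-LCG level earlier, 1.88 (1.25 to 2.72) at 2 to 3 KRT35 UMIs, but stood at 0.179 and 0.370 in the bins between. PRR9 and KRT38 had no such bin. No order of onset among the 3 genes came out of this measure, and for MT4 in FT-LCG and KRTAP11-1 in CT-LCG another random draw moved the start of the bin to 4 and to 2 UMIs.

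Other hair genes measured in the same bins gave a frame for these. SELENBP1, a selenium-binding protein, had a level of 1.04 at 0 KRT35 UMIs and 41.4 at 16 or more in FT-LCG, and 2.23 and 26.8 in the lowest and highest bins of CT-LCG. KRT36 and KRT84, hair keratins of type I and type II, were at 0.08 and 0.06 in the lowest FT-LCG bin and at 12.1 and 9.66 in the highest. HOXC13, a homeobox factor that controls hair keratin genes, was at 0.10 and 2.41, and LEF1, the partner of beta-catenin in Wnt signalling, at 0.02 and 1.03. MSX1, another homeobox factor of the matrix, peaked lower, at 2.86 in the bin of 4 to 7, and stood at 0.74 at 8 to 15. Each of SELENBP1, KRT36, KRT84, HOXC13 and LEF1 was also higher in the top CT-LCG bin than in cells without KRT35. DLX3, LY6G6D, S100A3 and KRT32, the last on 1 UMI, had higher levels in the top than in the lowest FT-LCG bin. GATA3 went the other way, from 2.42 to 0.345 in FT-LCG and from 2.21 to 0.4 in CT-LCG. GPRC5D, FOXN1 and DLX2 had no UMI in the 29 cells of the top FT-LCG bin. The interval there reaches 1.27, so no fall can be read from it. They stood at 0.107, 0.074 and 0.042 in the lowest bin and at 0.536, 0.179 and 0.893 at 4 to 7. In CT-LCG they had 1 UMI each in the top bin.

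The 20 cell cycle genes together stood at 8.51, 9.31, 9.66 and 13.4 in the first 4 FT-LCG bins and at 4.63 (3.00 to 6.83) and 2.41 (0.97 to 4.97) in the last 2. In CT-LCG they were at 6.68 in the lowest and 6 (3.36 to 9.90) in the highest bin. Basal and suprabasal epidermal markers were lower in the top than in the lowest bin, at 17.6 and 27.9 against 269 and 339 in FT-LCG, and at 22.4 and 131 against 89.5 and 475 in CT-LCG. Endothelial and T cell markers were at 0 UMIs in the top bin of both libraries. Transcripts of cytosolic ribosomal proteins went from 2518 to 3623 in FT-LCG and from 2293 to 3660 in CT-LCG.

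For the cells that held most of each gene, a level of at least 80 UMIs per 10000 (8 or more thinned UMIs) was used, a limit chosen after the values had been seen, and cells at or above it are called rich in that gene. KRT35 reached it in 25 CT-LCG and 83 FT-LCG cells. MT4 reached it in 7 and 22 cells, KRTAP11-1 in 4 and 12, PRR9 in 6 and 5, and KRTAP3-1 in 0 and 4, while KRT38 reached it in none. Near the limit, 7 CT-LCG and 27 FT-LCG cells had 6 or 7 thinned KRT35 UMIs and 9 and 21 had 8 or 9. Of the KRT35 cells, 12 of 25 in CT-LCG and 65 of 83 in FT-LCG were in the KRT35-high cluster, and 10 and 4 were in the shallow cluster 0.

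PRR9-rich and KRT35-rich cells did not overlap. None of the 11 PRR9-rich cells reached 80 of KRT35, and 9 of them had no thinned KRT35 UMI, 5 of 6 for CT-LCG and 4 of 5 for FT-LCG. Among all thinned cells, only 25 of 3074 in CT-LCG and 83 of 8569 in FT-LCG were KRT35-rich. A KRT35 UMI was seen in 12.2% and 11.6% of them. So few PRR9-rich cells therefore cannot show whether such cells lack KRT35 more often than others. Of the PRR9-rich cells, 4 of 6 and 4 of 5 held 8 or more thinned UMIs of KRT25, KRT27 and TCHH together, with medians of 240 and 2080 per 10000. The share of all thinned cells with that many was not counted, so these counts have no base share beside them. Among thinned cells without KRT35, 34.2% (CT-LCG) and 8.65% (FT-LCG) had a TCHH UMI. In the KRT35-rich cells the median of KRT25, KRT27 and TCHH together was 10 for CT-LCG and 0 for FT-LCG. PRR9 had a UMI in 1 of 25 and 1 of 83 of those cells. KRTAP11-1 and KRTAP3-1 had no thinned UMI in any PRR9-rich cell. Among all thinned cells the share was 9.14% and 7.03% for KRTAP11-1 and 0.618% and 2.93% for KRTAP3-1. Before thinning, 1 of the PRR9-rich CT-LCG cells held 1 KRTAP11-1 UMI. KRTAP3-1 was held by 2 of the PRR9-rich FT-LCG cells, with 15 UMIs in the cell of 139578 UMIs.

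KRTAP3-1-rich cells were nested in the others. All 4 of them, in FT-LCG, were also KRTAP11-1-rich, with KRTAP11-1 between 130 and 1000 per 10000, and 3 were MT4-rich. None of the 4 had a thinned KRT35 UMI, though the cell with 75565 UMIs held 1 before thinning. Only 11.6% of all thinned FT-LCG cells had a KRT35 UMI, so 4 cells cannot show that KRT35 is lacking. The 12 KRTAP11-1-rich FT-LCG cells included 7 that were MT4-rich and 3 that were KRT35-rich. A thinned KRT35 UMI was seen in 7 of the 12, beside 11.6% of all thinned FT-LCG cells, and 5 had none. The median KRT35 level of the 12 cells was 20. In CT-LCG, 2 of the 4 KRTAP11-1-rich cells were MT4-rich and 1 was KRT35-rich. The 22 MT4-rich FT-LCG cells included 6 that were KRT35-rich and 17 with a KRT35 UMI, and the 7 in CT-LCG included 3 and 5.

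The same cells differed in their ribosomal protein transcripts. The median per 10000 in FT-LCG was 3980 in the 83 KRT35-rich cells, 2850 in the 22 MT4-rich, 2360 in the 12 KRTAP11-1-rich and 1185 in the 4 KRTAP3-1-rich cells. In CT-LCG it was 3570 in KRT35-rich, 3500 in MT4-rich and 3515 in KRTAP11-1-rich cells. The lower medians were seen in FT-LCG only, in small and overlapping sets of cells, and the difference between the libraries was not tested.

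**Figure D3:**
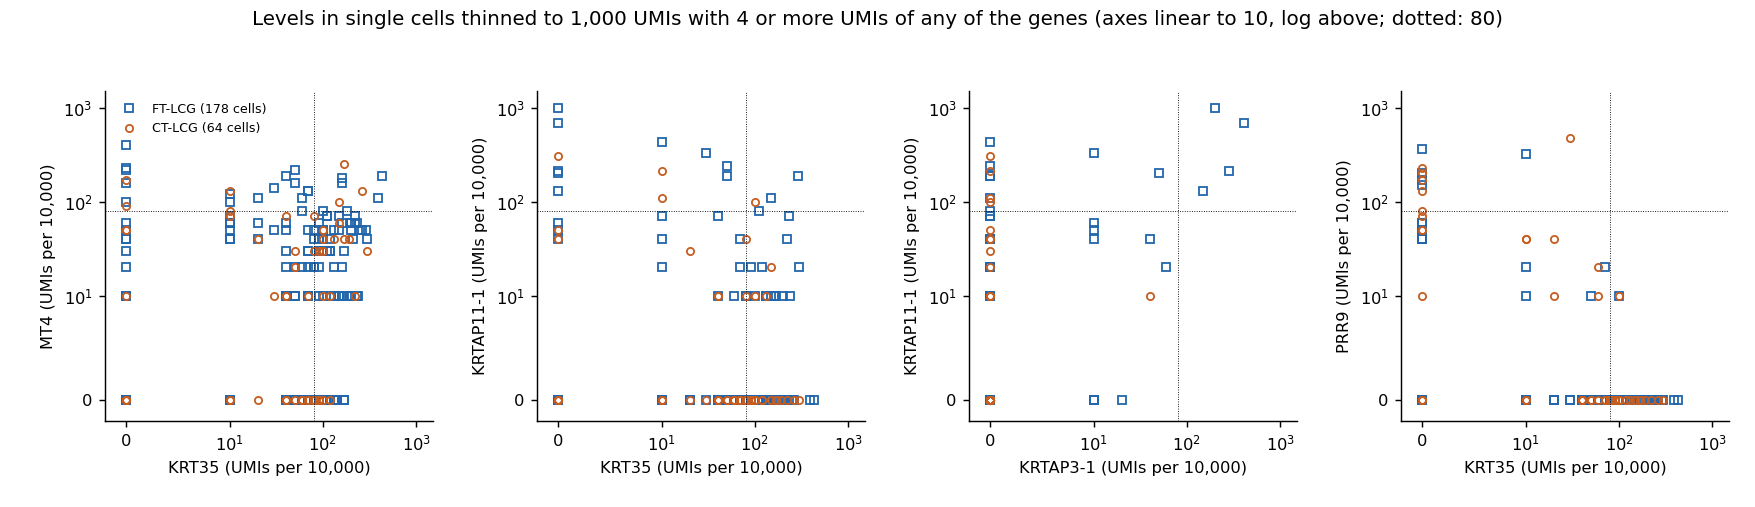
Levels of pairs of genes in single cells (UMIs per 10000 after thinning to 1000, linear to 10 and log above) for the 64 CT-LCG (circles) and 178 FT-LCG (squares) cells with 4 or more thinned UMIs of any of the 6 genes, with dotted lines at 80. The 3 CT-LCG and 6 FT-LCG cells rich in both KRT35 and MT4 lie at or beyond both dotted lines of the first panel. The KRTAP3-1-rich cells are all high in KRTAP11-1. No cell reaches 80 in both KRT35 and PRR9, where 6 CT-LCG and 5 FT-LCG cells are rich in PRR9.

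Co-detection of single UMIs was read against depth. Of thinned cells with an MT4 UMI, 33.7% of those of CT-LCG (99 of 294; 28.3% to 39.4%) and 35.9% of those of FT-LCG (235 of 654; 32.2% to 39.7%) also had KRT35, beside 12.2% and 11.6% of all thinned cells. For KRTAP11-1 it was 25.3% (71 of 281) and 28.2% (170 of 602), for KRTAP3-1 26.3% (5 of 19) and 30.7% (77 of 251), and for PRR9 23.6% (54 of 229) and 23.8% (86 of 362). Each of these genes was thus found with KRT35 more often than KRT35 was found in all cells, PRR9 included. For KRTAP3-1 in CT-LCG, however, the interval (9.15% to 51.2%) holds the overall 12.2%.

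Among the 1824 CT-LCG and 6495 FT-LCG thinned cells with at least 1000 genes, where 4.17% and 6.2% had KRT35, the genes parted. MT4 cells kept a high KRT35 share, at 29.4% (15 of 51; 17.5% to 43.8%) and 37.9% (105 of 277; 32.2% to 43.9%). KRTAP11-1 cells stood lower than MT4 cells, at 13.2% (7 of 53, 5.48% to 25.3%) and 14.5% (27 of 186, 9.79% to 20.4%). KRTAP3-1 cells in FT-LCG stood at 16.9% (10 of 59, 8.44% to 29.0%). These intervals of KRTAP11-1 and KRTAP3-1 still lay above the overall KRT35 share of their library. PRR9 cells stood at 0 of 45, which allows a share of up to 6.67%, and at 5.83% (7 of 120; 2.38% to 11.6%), with the overall KRT35 shares inside both intervals. The pairing of PRR9 with KRT35 over all thinned cells was thus not seen in these deeper cells, while that of MT4 with KRT35 was. Cells with fewer genes were not taken on their own, so no pairing is stated for them. KRT38 was seen with KRT35 in no thinned cell, out of 374 and 997 cells with KRT35. With a KRT38 UMI in only 1 of 3074 and 7 of 8569 thinned cells, this cannot show whether the 2 genes avoid each other.

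The mix of the genes was also counted per 100 KRT35 UMIs in sets of cells. In cells with 8 or more thinned KRT35 UMIs there were 3.59 (CT-LCG) and 4.98 (FT-LCG) KRTAP11-1 UMIs for every 100 of KRT35, beside 0.114 and 0.0997 of PRR9. These cells were chosen by KRT35, so low numbers per 100 KRT35 UMIs are built in and show no difference in mix. The KRT35-high cluster had 4.07 and 44.1 of KRTAP11-1 and 2.66 and 4.88 of PRR9. It was picked as the cluster with the highest KRT35 level, so low numbers are in part built in there too. In FT-LCG, 5594 of its 8645 KRTAP11-1 UMIs lay in 1 cell. In endothelial-like cells, with 12 and 49 KRT35 UMIs in all, there were 108 and 46.9 of KRTAP11-1 and 50.0 and 220.4 of PRR9, of which 96 of the 108 FT-LCG PRR9 UMIs lay in 1 cell. In the barcodes outside the cell table there were 87.4 and 113 of KRTAP11-1 and 69.4 and 41.0 of PRR9.

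The genes most like each member over cells were sought by Pearson's r of log levels, taking the lower of the 2 libraries' values, over the 881 CT-LCG and 2101 FT-LCG thinned cells with a UMI of any of the 6 genes and 2106 genes seen in at least 5% of them in each library. KRT35 was most like LOC102184693 (r = 0.30), LOC102184223 (0.26) and SELENBP1 (0.23), followed by SPTSSB and MGST3. The first pair lie between KRT84 and KRT7 in assembly ARS1.2, among the type II keratin genes. MT4 shared LOC102184223 as its first (0.25), and its second, LOC102188339 (0.12), is a long non-coding RNA gene near MT3 and MT4 whose reads may not be separable from theirs. KRTAP11-1 was most like LOC102176726 (0.19) and LOC100861381 (0.18), which have KRT38 as their nearest named neighbour on one side, then LOC102183766, LOC102185436 and CST6.

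PRR9 was most like LOC102177231 (0.18), KRT27 (0.17), KRT25 (0.16), TCHH (0.13) and FABP9 (0.11), of which KRT27, KRT25 and TCHH are genes of the inner root sheath. KRTAP3-1, seen in 19 of those CT-LCG cells, had values of at most 0.09 (FABP5, FOS, LOC100861381, EMP1 and GLOD4), and KRT38 was too rare to be ranked. All these values are low, the cells share libraries and depth, and they are given as a description.

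Over all kept cells, the summed level of all 6 genes was higher in FT-LCG. The log2 ratio of FT-LCG over CT-LCG was 1.66 (1.60 to 1.71) for KRT35, 1.80 (1.70 to 1.89) for KRTAP11-1, 4.73 (4.34 to 5.14) for KRTAP3-1, 1.42 (1.35 to 1.5) for MT4, 1.03 (0.95 to 1.11) for PRR9 and 2.47 (0.51 to 5.58) for KRT38. All 5 members with at least 100 UMIs were 2-fold or more higher in FT-LCG, where 8.41% of the 13014 genes with that many UMIs were 2-fold or more higher and 7.24% were 2-fold or more lower. These sums weigh each cell by its UMIs, and so lean on the few deep cells described above.

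With cells weighed equally the picture changed. After thinning each cell to 1000 UMIs the log2 ratio was 0.20 for KRT35, -0.052 for KRTAP11-1, -0.13 for MT4, -1.09 for PRR9 and 2.57 for KRTAP3-1. Leaving out the 5% of cells with most UMIs in each library, PRR9 came to -0.68. Without the 1 cell that held most KRTAP11-1, that gene came to 0.76 (0.67 to 0.86) and KRTAP3-1 to 2.90 (2.51 to 3.32). Of the 5 members with at least 100 UMIs, KRT35 and KRTAP3-1 stayed above 0 in each of these settings, and KRTAP3-1, with the fewest CT-LCG UMIs of the 5, had the largest ratio in each.

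In the KRT35-high cluster the log2 ratio was 1.41 (1.33 to 1.49) for KRT35, 4.84 (4.46 to 5.25) for KRTAP11-1, 8.36 (6.51 to 11.4) for KRTAP3-1 from 2 CT-LCG UMIs, 1.86 (1.72 to 1.99) for MT4, 2.28 (1.80 to 2.80) for PRR9 and -0.13 (-3.29 to 5.43) for KRT38. Again the 5 members with at least 100 UMIs were 2-fold or more higher in FT-LCG. So were 36.1% of the 4120 genes with that many UMIs in the cluster, while 2.94% were 2-fold or more lower, and the median log2 ratio of those genes was 0.80. Without the 20 cells with 10 or more LOC102191453 UMIs, KRT35 was at 53.0 (50.2 to 55.9) in CT-LCG and 53.7 (52.9 to 54.4) in FT-LCG, a log2 ratio of 0.019 (-0.06 to 0.10), and MT4 came to 0.48 (0.34 to 0.61). KRTAP11-1 was then at 3.50 (3.11 to 3.92), KRTAP3-1 at 6.97 (5.11 to 10.0) and PRR9 at 0.93 (0.44 to 1.46), so that 2 of the 5 members were 2-fold or more higher, beside 10% of 3881 genes (3.61% were 2-fold or more lower). Without the FT-LCG cell with most KRTAP11-1 instead, that gene came to 3.37 (2.99 to 3.78), a fold of 10.3, and KRTAP3-1 to 5.22 (3.36 to 8.27), a fold of 37.3. In the set without the LOC102191453 cells, the CT-LCG values of KRT35 and MT4 lean on 1 cell with 34759 UMIs. It held 607 of the 1346 KRT35 UMIs and 248 of the 469 MT4 UMIs. The ratios without that cell were not computed, so the KRT35 ratio near 0 is uncertain.

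**Figure D4:**
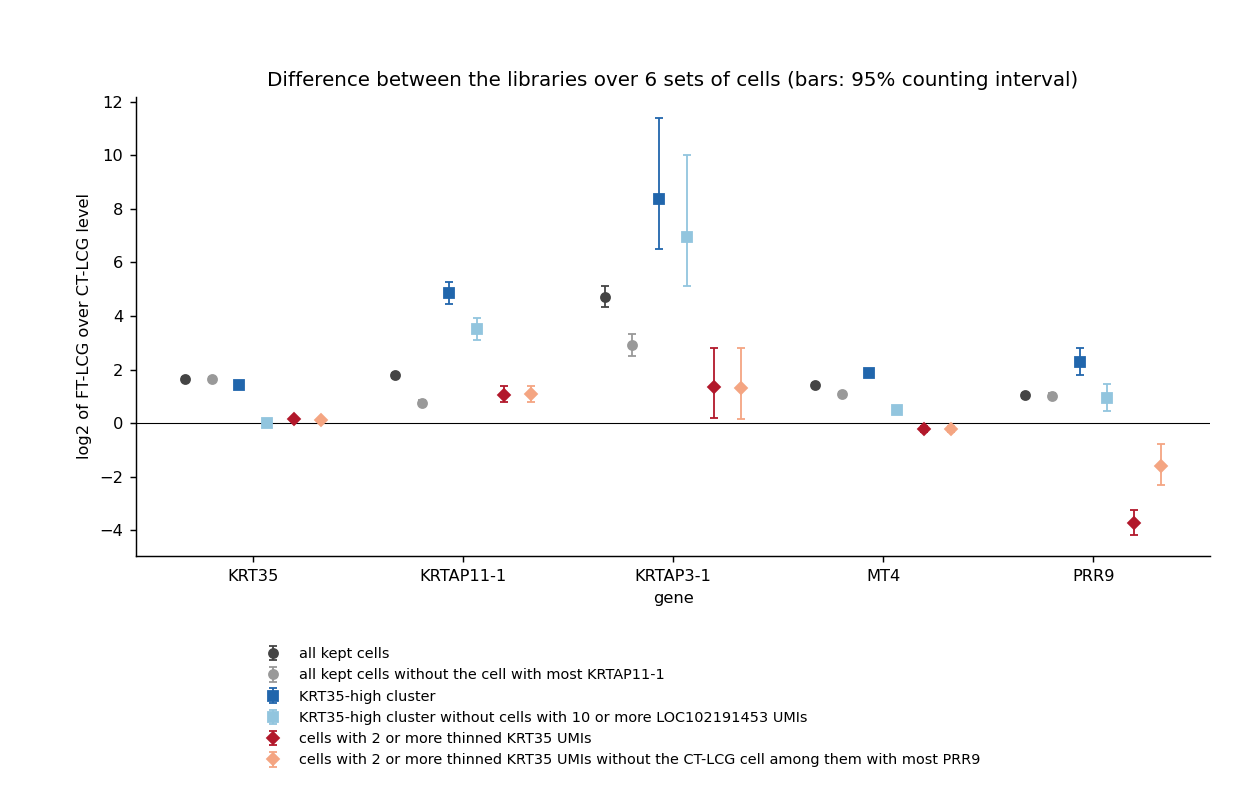
Log2 of the FT-LCG over the CT-LCG level of KRT35, KRTAP11-1, KRTAP3-1, MT4 and PRR9 over 6 sets of cells, with 95% counting intervals and a line at 0. The squares are lower when the cells with 10 or more LOC102191453 UMIs are left out, with KRT35 going from 1.41 to 0.019, and MT4 and PRR9 lie under 0 among the cells with 2 or more thinned KRT35 UMIs (diamonds).

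Among cells chosen by KRT35 alone the libraries lay closer for MT4. In the 25 CT-LCG and 83 FT-LCG cells with 8 or more thinned KRT35 UMIs, MT4 was seen in 68.0% (46.5% to 85.1%) against 75.9% (65.3% to 84.6%), at thinned levels of 38.8 (31.5 to 47.3) and 33.0 (29.2 to 37.2). KRTAP11-1 was seen in 24.0% (9.36% to 45.1%) and 21.7% (13.4% to 32.1%), at 7.60 (4.58 to 11.9) and 7.83 (6.04 to 9.98). KRTAP3-1 was at 1.60 (0.436 to 4.10) and 0.723 (0.265 to 1.57), and PRR9 at 0.4 and 0.12, from 1 thinned UMI in each library. The counting intervals of both libraries overlapped for each of these genes. These cells had a median depth of 2258 UMIs (CT-LCG) and 14249 UMIs (FT-LCG), and 1 of the FT-LCG cells carries a barcode that both libraries share.

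On unthinned sums over the same cells, which lean on the deeper ones, MT4 stood at 49.9 (46.1 to 54.0) for CT-LCG and 30.1 (29.1 to 31.1) for FT-LCG, a log2 ratio of -0.73 (-0.85 to -0.61). The MT4 ratio was thus above 0 in the cluster and below 0 in cells chosen by KRT35. In the 92 and 288 cells with 2 or more thinned KRT35 UMIs, KRTAP11-1 was at 3.84 (3.12 to 4.66) and 8.03 (7.71 to 8.37), a log2 ratio of 1.07 (0.78 to 1.37), and MT4 at -0.22 (-0.33 to -0.10). In both sets chosen by KRT35, 248 of the CT-LCG MT4 UMIs (620 and 725 in all) lay in the cell with 34759 UMIs. Ratios without that cell were not computed, so the sign of MT4 in these sets is uncertain. PRR9 came to -3.71 (-4.19 to -3.25) in the cells with 2 or more thinned KRT35 UMIs. Of its 88 CT-LCG UMIs in these cells, 68 lay in 1 cell with 1601 UMIs, and without that cell the ratio was -1.59 (-2.32 to -0.79).

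Other genes of the shaft were counted in the same cluster. Of 15 further hair keratins listed, 6 were found by symbol. KRT36 and KRT84, with at least 100 UMIs there, had log2 ratios of 3.37 and 3.00. Both were thus 2-fold or more higher in FT-LCG, as were 36.1% of the 4120 genes tested in the cluster. Without the LOC102191453 cells both were so too, with a median of 1.79, as were 10% of 3881 genes. KRT36 had 14 CT-LCG and 790 FT-LCG UMIs, and KRT84 had 16 and 703. The remaining 4 (KRT32, KRT39, KRT40 and KRT82) had between 6 and 33 UMIs over both libraries. KRTAP15-1, the further keratin-associated protein gene found by symbol, had 0 and 16.

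Of 13 measured enzymes and structural proteins of the shaft, 7 had at least 100 UMIs in the cluster. Of those, 5 were 2-fold or more higher in FT-LCG and none 2-fold or more lower, with a median log2 ratio of 1.40, where 36.1% of all genes tested in the cluster were higher and 2.94% lower. Without the LOC102191453 cells 2 of the 7 were higher, with a median of 0.44. S100A3, a calcium-binding protein of the hair cuticle, came to 4.42 on 4 CT-LCG UMIs. GPRC5D, an orphan receptor of the hair cortex, came to 5.81 on 2 CT-LCG UMIs. SELENBP1 came to 1.33, LY6G6D to 1.95 and MT3, the metallothionein gene next to MT4, to 1.40. TGM3, a transglutaminase, was at 0.59 and CYSTM1 at -0.99. For S100A3 and LY6G6D the direction depended on the set of cells. Among cells with 8 or more thinned KRT35 UMIs, their thinned levels were higher in the coarse type. S100A3 had 21.6 (fine type 10.0), seen in 12% of those cells (fine type 6.02%), and LY6G6D had 8.0 (fine type 1.33). SELENBP1 with 26.8 (fine type 42.0) stayed higher in the fine type. TGM3 with 0.4 (fine type 0.843) was seen in 4% of those cells (fine type 8.43%), too few to give a direction. GPRC5D had 1 UMI in those cells of the coarse type and none in the fine type, also too few.

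Of the 24 transcription factors and signals of the matrix and precortex, 17 had 100 UMIs there, and 14 of those were 2-fold or more higher in FT-LCG and none 2-fold or more lower, with a median of 1.43, beside the same 36.1% and 2.94% of all genes. Without the LOC102191453 cells, which held 63.1% of the CT-LCG UMIs, 6 of the 17 were higher, with a median of 0.32, beside 10% of 3881 genes and a median of 0.11. In all cells of the cluster HOXC13 came to 0.99, LEF1 to 0.87, DLX3 to 1.28, MSX1 to 1.65, MSX2 to 1.32, FOXN1 to 2.61, DLX2 to 2.48, TRPS1 to 1.43 and ID3, an inhibitor of basic helix-loop-helix factors that answers to BMP signals, to 3.47. BAMBI came to 2.49, JAG1 to 3.05, NOTCH1 to 2.46, GATA3 to 1.53, KLF4 to 1.10, OVOL1 to 1.31, WNT10A to 1.31 and BMP4 to 0.82. PRDM1, with 12 and 20 UMIs, came to -1.72. The inner root sheath genes, 4 of them with 100 UMIs, had a median of 1.44 and the 7 cell cycle genes with that many a median of 1.92. These medians stand beside 0.80 for the 4120 genes of the cluster, and without the LOC102191453 cells they were 0.22 and 0.92.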

How the data were processed

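Skin of 1 goat of each fibre type was measured by single-cell RNA sequencing. The deposited matrix holds raw UMI counts, made by the authors with Cell Ranger (version 3.0.2 in the matrix header) and not normalized. The submitters' notes also name Seurat 3.1.1, and no source used here names the goat genome build or annotation. The deposited cell table lists the kept cells, with their library, and holds cells with more than 500 genes. The genes and lists were chosen with earlier results of these data known.

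For clustering, each cell's counts were brought to a total of 10000 and logged. The 2000 genes that varied most, leaving out the 6 members and the other listed hair shaft genes (26 measured in all), gave 10 principal components, corrected for library by a numpy version of Harmony, and a graph of 20 neighbours was clustered with leidenalg 0.10.2 at resolution 0.7 (scanpy 1.11.5, Python 3.11.15). A cluster was named when the same marker list led its 10 leading genes at pseudocounts of 0.05 and 1, with 3 or more markers of at least 10 UMIs. This way of choosing among lists was set after the data had been seen. No cluster could be named hair shaft-like, so the planned comparison in hair shaft cells used the cluster with the highest KRT35. Doublets were not called.

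Thinning drew 1000 UMIs per cell without replacement. Bins of KRT35 were merged from the top until each held 20 cells. Intervals are at 95%: exact Poisson for levels, Clopper-Pearson for shares and conditional binomial for ratios, and a count of 0 was given the limit of 3 counts. UMIs count captured molecules, so intervals cover counting error and not differences between animals. Depth per cell ran from 729 to 172185 UMIs (CT-LCG) and from 630 to 190503 (FT-LCG). The ratios, intervals, thinning and onset bins were tested on simulated data.

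Named genes are the 6 members, the listed hair shaft keratins, enzymes and transcription factors with at least 100 UMIs in the KRT35-high cluster, or at least 10 in each library there, the keratin-associated protein genes highest there (5 were to be named, but 1 was found by symbol), and the 5 genes most like each member. KRT32, KRT39, KRT40 and KRT82, LOC102191453, the genes leading clusters and those shown by KRT35 bin were named after their values had been seen. Of 27137 features, 27103 had their identifier in the gene table of assembly ARS1.2, which was used for neighbours only.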

Additional observations from a re-analysis of the deposited data

Results flagged for a closer look

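A signal of the members appeared in data outside the main measurement, the 2659 CT-LCG and 1589 FT-LCG barcodes, assigned by their suffix, that the cell table leaves out and that hold at most 500 genes. In CT-LCG these barcodes held 674 UMIs of KRT35, 589 of KRTAP11-1, 46 of KRTAP3-1, 620 of MT4 and 468 of PRR9. In FT-LCG they held 546, 618, 267, 528 and 224. KRT38 had none. Per 10000 UMIs this was 3.40 and 5.48 for KRT35, 2.97 and 6.2 for KRTAP11-1, 0.232 and 2.68 for KRTAP3-1, 3.13 and 5.30 for MT4, and 2.36 and 2.25 for PRR9. In FT-LCG, 11 of the barcodes held 10 or more KRTAP11-1 UMIs, with at most 48 in one, and 5 held 10 or more of KRTAP3-1. The level of each of these genes was higher there than in the kept cells of its library, by 1.62 times for KRT35 in FT-LCG up to 11.8 times for KRTAP3-1 in CT-LCG. Whether these barcodes are cells or free RNA was not tested.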

How the results depend on the processing

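Of 54 values of the log2 ratio in the KRT35-high cluster under other settings, 6 changed sign. These were 3 for PRR9, 2 for MT4 and 1 for KRT38, whose interval spans 0 and which was 0.19 with only the 6 members left out of clustering. Settings that chose cells by KRT35 UMIs took them from any cluster, and all the sign changes of PRR9 and MT4 came from such settings. Another 31 moved further than their counting interval. After thinning KRT35 was 1.04, KRTAP11-1 2.89, MT4 1.61 and PRR9 0.36. The mean over cells gave KRT35 1.06, KRT38 -3.46, KRTAP11-1 2.47, KRTAP3-1 4.68, MT4 1.46 and PRR9 0.34. Cells with 2 or more thinned KRT35 UMIs gave KRT35 0.14, KRTAP11-1 1.07, KRTAP3-1 1.33, MT4 -0.22 and PRR9 -3.71, and 3 members higher in FT-LCG in place of 5. Without Harmony KRT35 was 1.15, MT4 1.61 and PRR9 1.19. With only the 6 members left out of clustering KRT35 was 2.91, KRTAP11-1 4.14 and MT4 3.08. Cells with 1000 genes gave KRTAP11-1 5.63 and PRR9 2.82.

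Some settings were chosen after seeing the data. Cells of any cluster with 8 or more thinned KRT35 UMIs gave KRT35 0.0023, KRTAP11-1 0.47, KRTAP3-1 0.51, MT4 -0.73, PRR9 -0.19 and 3 members higher. The PRR9 ratio was -1.59 for cells of any cluster with 2 or more, without 1 PRR9-rich cell. Within the KRT35-high cluster without LOC102191453 cells, KRT35 was 0.019, KRTAP11-1 3.50, MT4 0.48 and PRR9 0.93. In that cluster without the cell with most KRTAP11-1, that gene was 3.37, KRTAP3-1 5.22 and MT4 1.36. The gene lists without LOC102191453 cells, and PRR9 without its top cell, were also added after seeing the data.

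Over all kept cells the mean over cells gave KRT35 0.20, KRTAP11-1 -0.17, KRTAP3-1 2.44, MT4 -0.24, PRR9 -0.90 and 3 members higher in place of 6. Thinning, added after seeing the data, gave 0.20, -0.052, 2.57, -0.13, -1.09 and also 3. Cells with 1000 genes gave KRT35 2.06, KRTAP11-1 2.74, KRTAP3-1 5.92, MT4 1.98 and PRR9 1.57, and all barcodes gave 1.47, 1.30, 4.01, 1.09 and 0.74. Without the 5% deepest cells they were 1.06, 0.28, 2.75, 0.58 and -0.68. Without the cell with most KRTAP11-1, also added, that gene was 0.76, KRTAP3-1 2.90 and MT4 1.07. The causes were not tested.

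The onset bin (numbered from 0 by KRT35 UMIs, and 4 for CT-LCG and 5 for FT-LCG as reported) moved at 500 UMIs to 2 and 3 for KRTAP11-1 and to 3 and 3 for MT4. At 2000 UMIs it moved in FT-LCG to 6 for KRTAP11-1, 6 for KRTAP3-1 and 4 for MT4. In cells with 1000 genes it was 1 for KRTAP11-1 and 2 for MT4 in CT-LCG, and with another draw 2 for KRTAP11-1 in CT-LCG and 3 for MT4 in FT-LCG. At a lower share of the highest level (0.25 in place of 0.5) it was 1 and 2 for KRTAP11-1 and 3 for MT4 in FT-LCG.

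The share of KRTAP11-1 cells with KRT35 was 13.2% and 14.5% in cells with 1000 genes and 33.1% in unthinned FT-LCG cells. That of PRR9 cells was 0% and 5.83%, and 31.8% in unthinned FT-LCG cells. That of MT4 cells stayed within its interval under each setting run. No paired analysis was possible because each type has 1 library. At this depth KRT38 had at most 4 UMIs in a cell, and KRTAP3-1 in CT-LCG at most 5.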
